A study of Mus musculus with 5 samples.

Results

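Chemokine receptors were described in leukocytes sorted from the pancreas: the genes Ccr1, Ccr2, Ccr6, Ccr9, Cxcr3, Cxcr4, Cxcr6, Cx3cr1 and Ackr3, 9 of the 19938 genes with a probe set of their own on the array. They were chosen by name, each through the probe set that carries its symbol alone, and each had 1 such probe set. The RNA came from CD45+ cells sorted by flow cytometry from the pancreas of 5 female wild-type NOD mice of 10 weeks, and NOD mice become diabetic through an autoimmune attack on the islets. MRI of the pancreas shortly before its removal had given a transverse relaxation time, T2, for each animal. From low to high, mouse 5 had a T2 of 28.98 ms, mouse 4 of 30.02 ms, mouse 3 of 32.77 ms, mouse 2 of 35.24 ms and mouse 1 of 35.3 ms. The mice form 1 group, with no control group among them, so levels were compared with T2 across the 5 mice. The labels do not say whether high or low T2 goes with more severe inflammation, and no such reading is made here.

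Chemokine receptors are membrane proteins that guide leukocytes along gradients of small secreted chemokines. Most signal through inhibitory G proteins, and each leukocyte type carries its own set, so the receptors of a mixed infiltrate also mirror which cells are in it. Receptors such as CCR1, CCR2 and CXCR3 follow ligands made during inflammation, whereas CXCR4 and CCR9 follow ligands made constitutively in bone marrow, thymus or gut. ACKR3 is an atypical receptor that takes up the chemokine CXCL12 without classical G protein signalling.

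Values are probe-set intensities after RMA, the standard normalization of Affymetrix arrays, and differences are on the log2 scale. The gene Ptprc, which encodes CD45, had a log2 intensity between 10.9 and 11.2 in the 5 mice. A slope gives the log2 units by which a gene's intensity changed for each ms of T2, and its error is the standard error of limma's moderated fit. A gene was tested if its mean log2 intensity was at least 6, an intensity of about 64. Of the 9 receptors, 7 passed this filter, and Ccr6 and Ackr3 did not. None of the 7 passed an adjusted p under 0.05 over the 6603 genes tested (limma, Benjamini-Hochberg), where 0% of all genes passed. At an unadjusted p under 0.05, 1 of the 7 receptors was found, Ccr1, which was lower at higher T2. Of all genes tested 5.29% had such a p, 4.59% with lower and 0.697% with higher intensity at higher T2. The values come from mixed cells, in which fewer cells of a type and less RNA per cell cannot be told apart.

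**Figure D1:**
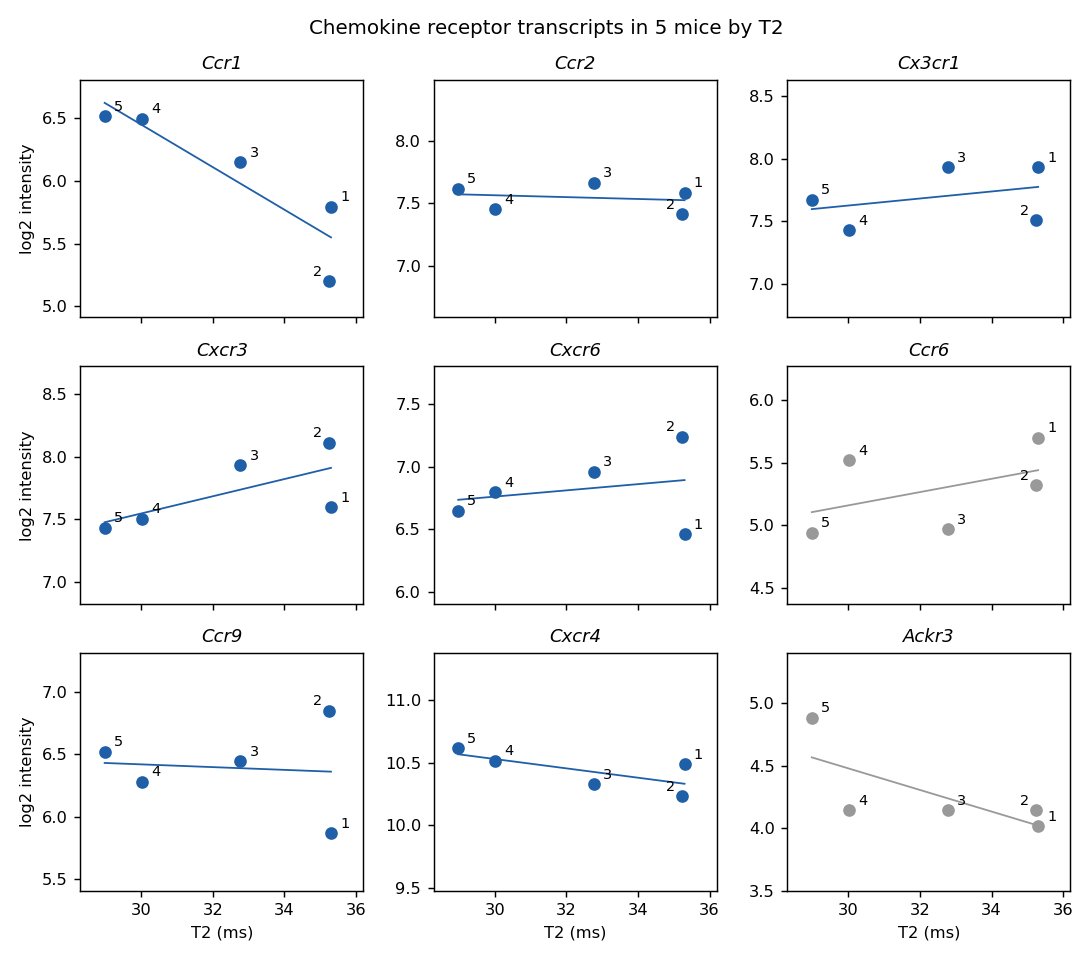
Log2 intensity (vertical axes, all spanning the same number of log2 units) of the 9 chemokine receptor genes against T2 in ms (horizontal axes). Each point is 1 mouse with its number, the line is the fitted slope, and grey marks the genes under the expression filter. Ccr1 is highest in mice 5 and 4, whereas mice 1 and 2, of nearly equal T2, are the 2 extremes of Ccr9 and of Cxcr6.

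Ccr1 was the receptor that varied most among the 7 and the one with the steepest T2 slope. CCR1 is a receptor of monocytes, macrophages and neutrophils for CCL3, CCL5 and related chemokines. In intensity, mouse 5 read 91.7, mouse 4 read 90.3, mouse 3 read 71.0, mouse 2 read 36.8 and mouse 1 read 55.5. It was thus highest in the mice of lowest T2, intermediate in mouse 3, and lowest in the mice of highest T2, mouse 2 in particular. The slope was -0.17 ± 0.042 log2 per ms (n = 5), which the fit makes a 2.11-fold higher intensity at the lowest than at the highest T2 (95% interval from 1.25 to 3.55). The limma unadjusted p was 0.0169 and the adjusted p 0.633. The exact permutation of T2 over its 120 orders gave p = 0.0417 (two-sided), where the smallest p that 5 mice allow is 0.00833, and 9 receptors were tried. Its mean log2 intensity of 6.03 lay just above the filter, and the readings of mice 2 and 1 lay under it. Without mouse 4 or without mouse 5 the gene fell under the filter, with slopes of -0.16 ± 0.059 and -0.19 ± 0.067 in a fit of all genes. Without mouse 2 the slope was -0.12 ± 0.011.

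The mice in which Ccr1 was high were those in which macrophage genes were high. The list of 20 macrophage genes had 19 with a probe set, 12 of them past the filter, and its mean log2 intensity read 9.028 for mouse 5, 8.998 for mouse 4, 8.560 for mouse 3, 8.004 for mouse 2 and 7.953 for mouse 1. Of these 12 genes, 11 read higher in both mice 4 and 5 than in mice 1 and 2, as did 15.4% of all genes tested. Defining markers were well above the filter, Adgre1 between 8.08 and 9.45 and Csf1r between 8.82 and 9.51. The median slope was -0.19 for the 12 genes past the filter and -0.071 for all 19 with a probe set. The list mean had a slope of -0.18 ± 0.016, and the difference of Ccr1 minus that mean, taken within each mouse, had a slope of 0.0055 ± 0.046. The SD over the 5 mice was 0.23 for this difference and 0.55 for Ccr1 itself. The list mean and the difference rest on the 12 genes past the filter. Among them Vsig4 had a slope of -0.45 and read 4.86 in mouse 1 and 5.97 in mouse 2, under the filter. The difference of Ccr1 from all 19 genes was not computed.

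Neutrophil genes did not share the order of Ccr1. Their list, with 7 of 14 genes past the filter, had its highest mean in mouse 3, at 8.77, and its lowest in mouse 4, at 6.72, where Ccr1 was high. The SD of Ccr1 minus the neutrophil mean was 0.86, larger than that of Ccr1. The neutrophil mean itself had an SD of 0.82, which enlarges the SD of the difference. Genes of the stress list, which respond to cell dissociation, also followed T2, with 13 of 15 past the filter. The slope of the list mean was -0.092 ± 0.025. The stress mean read 8.73, 8.31, 8.17, 7.97 and 8.06 in mice 5, 4, 3, 2 and 1, which is the order of Ccr1 mouse by mouse. The macrophage mean had mice 2 and 1 in the other order. The difference of Ccr1 from the stress mean was not computed. The mast cell list, with 5 of 10 genes past the filter, had means of 7.03, 6.86, 6.90, 6.31 and 5.79 in mice 5, 4, 3, 2 and 1 and a slope of -0.15 ± 0.055. The median slope was -0.17 for the 5 genes past the filter and -0.066 for all 10. Of the 5, Cpa3, Kit, Mcpt4 and Tpsb2 read under the filter in mouse 1. The part of macrophages, mast cells or stress in the Ccr1 slope was not tested.

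The receptors of monocytes took another course. CCR2, the receptor for CCL2 that lets inflammatory monocytes leave the bone marrow, had the smallest spread of the 9. In intensity, mouse 5 read 196, mouse 4 read 176, mouse 3 read 203, mouse 2 read 170 and mouse 1 read 192. These values showed no order by T2, with a slope of -0.0074 ± 0.019 and a 95% interval from -0.060 to 0.046 (limma adjusted p = 0.974). As a fold of the lowest over the highest T2, this interval runs from 0.819 to 1.30.

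Cx3cr1 encodes the receptor for the membrane-bound chemokine CX3CL1 and marks patrolling monocytes and many tissue macrophages. In intensity, mouse 5 read 204, mouse 4 read 173, mouse 3 read 244, mouse 2 read 182 and mouse 1 read 245. Mice 3 and 1 read nearly the same and above the others, and mice 2 and 4 below, so mice of like T2 differed. The slope was 0.028 ± 0.038 (limma adjusted p = 0.887).

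Both genes lay closer to the mean of the monocyte list than to that of the macrophage list. The monocyte genes did not run as 1 course, since 6 of the 9 past the filter had a slope above 0, while Itgam, the CD11b chain, and Fn1, fibronectin, had negative slopes, as the macrophage list had, of -0.20 ± 0.017 and -0.16 ± 0.016. The median of the 9 slopes was 0.038, while the mean of the list had a slope of -0.015 ± 0.032. For Ccr2 the SD over mice was 0.11, and it was 0.083 for its difference from the mean of the other 8 monocyte genes past the filter. For Cx3cr1 the SD was 0.23, and 0.14 for its difference from the 9 monocyte genes past the filter. Against the macrophage mean the SD grew to 0.51 for Ccr2 and 0.64 for Cx3cr1. Ccr2 minus the macrophage mean had a slope of 0.17 ± 0.026, and Cx3cr1 minus that mean 0.20 ± 0.046. Subtracting a list of steep slope from a gene of little slope gives such a slope and a larger SD by arithmetic. Cx3cr1 minus the monocyte mean kept a slope of 0.043 ± 0.014, and Ccr2 minus the other 8 monocyte genes had 0.0080 ± 0.016. Mice 4 and 5, whose macrophage genes were highest, did not hold the highest value of Ccr2 or of Cx3cr1, which were in mice 3 and 1. These differences are given as a description, with no test.

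**Figure D2:**
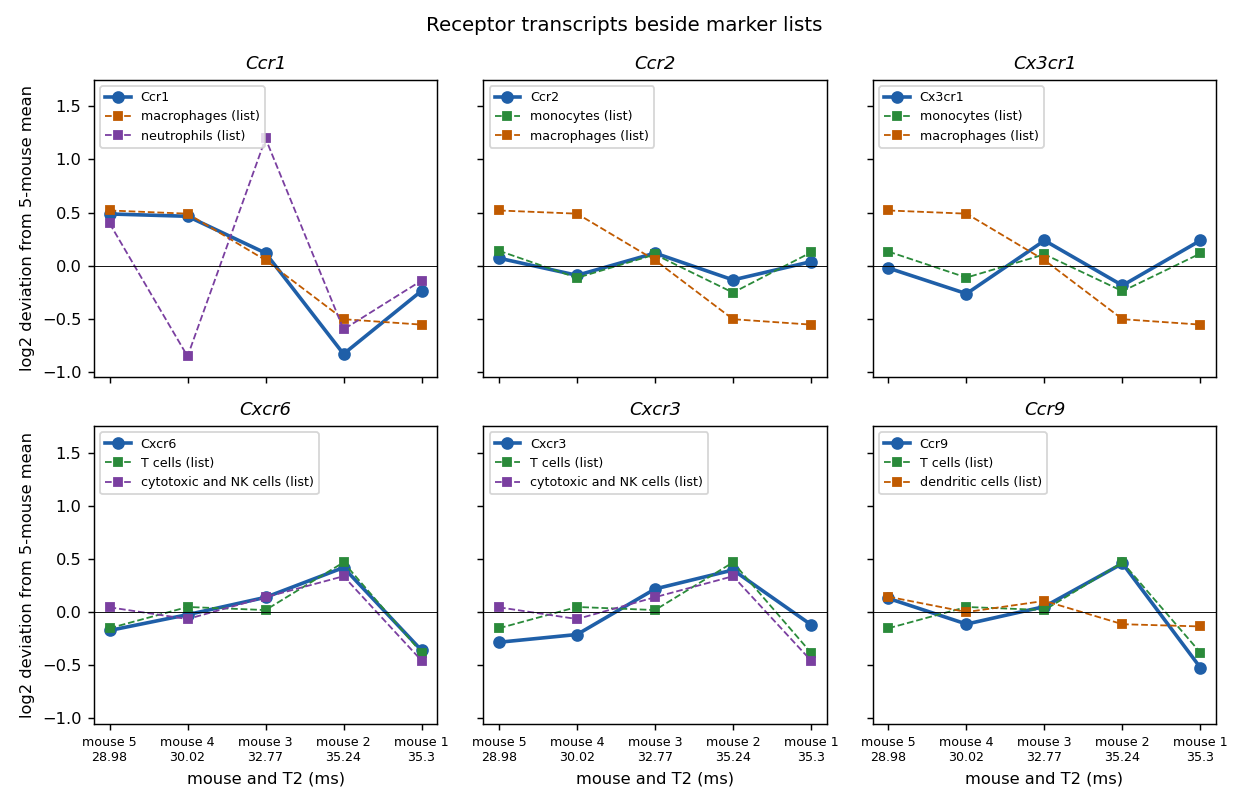
Log2 deviation from the 5-mouse mean (vertical axis) of 6 receptor genes (solid blue line, circles) and of the mean of marker lists (dashed lines, squares) in each mouse, ordered by T2 from low to high. Ccr1 lies close to the macrophage list and Cxcr6 close to the T cell list, while Ccr2 and Cx3cr1 lie closer to the monocyte list than to the macrophage list.

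The receptors of effector T cells differed between mice of nearly equal T2. CXCR6 binds CXCL16 and is carried by activated and tissue-resident T cells. For Cxcr6, mouse 5 read an intensity of 100.3, mouse 4 read 111, mouse 3 read 125, mouse 2 read 151 and mouse 1 read 88.1. It thus stepped up with T2 over 4 mice and was lowest in mouse 1, which had the highest T2. The slope was 0.025 ± 0.051 (limma adjusted p = 0.949), and -0.025 ± 0.043 without mouse 2. Mice 2 and 1, whose T2 differed by 0.06 ms, were the extremes, 1.72-fold apart.

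Cxcr6 followed the T cell list closely. That list, with 12 of 15 genes past the filter, had a mean log2 intensity of 8.09 for mouse 5, 8.29 for mouse 4, 8.27 for mouse 3, 8.71 for mouse 2 and 7.86 for mouse 1. The SD was 0.30 for Cxcr6, 0.31 for the list and 0.076 for the difference between them, the smallest such difference among the receptors and lists compared. The 3 genes tested whose mean-centred values came nearest to Cxcr6 over the 5 mice were Prf1, which encodes the pore-forming protein perforin, Thy1, a surface protein of T cells, and AW112010. Their root mean square distances were 0.056, 0.060 and 0.062 log2, against a median of 0.29 over all genes tested.

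CXCR3 is the receptor of type 1 helper and CD8 T cells for the interferon-induced chemokines CXCL9, CXCL10 and CXCL11. For Cxcr3, mouse 5 read an intensity of 173, mouse 4 read 182, mouse 3 read 245, mouse 2 read 277 and mouse 1 read 194. Mice 3 and 2 were high, and mouse 1, despite its T2, read near mice 4 and 5. The slope was 0.069 ± 0.038, 1.35-fold higher in the fit at the highest than at the lowest T2 (95% interval from 0.851 to 2.15; limma adjusted p = 0.828; exact permutation p = 0.233). Cxcr3 shared its highest mouse with the T cell list, and the SD of the difference from it was 0.22, against 0.29 for Cxcr3. The slope of that difference was 0.050 ± 0.033, and 0.078 ± 0.021 for the difference from the list of cytotoxic and NK cells, of which 6 of 12 genes passed the filter. The nearest genes were Snora16a, a small nucleolar RNA, Abhd8 and Tnfrsf4, the T cell costimulatory receptor OX40, at 0.055, 0.067 and 0.11 log2.

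Without mouse 1, 4 of the 7 receptors tested had an unadjusted p under 0.05, where 9.98% of all genes tested did. This was the run with the most receptors at such a p when each mouse was left out. They were Ccr1 with -0.21 ± 0.044, Cxcr4 with -0.061 ± 0.0072, Cxcr6 with 0.089 ± 0.0086 and Cxcr3 with 0.12 ± 0.012. No adjusted p fell under 0.05, the lowest being 0.361 (limma). In Ccr1, Cxcr4, Cxcr6 and Cxcr3 the other 4 mice stood in the order of T2, and mouse 1 did not. The share of all genes with such an order was not computed.

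Ccr1 and Cxcr6 lie close together. In the RefSeq annotation of GRCm38.p6, 5 of the 9 receptor genes are on chromosome 9 and 2 on chromosome 1. Ccr9, Cxcr6, Ccr1 and Ccr2 belong to 1 cluster on chromosome 9, in which only Xcr1 lies between Cxcr6 and Ccr1 among protein-coding genes, and only Fyco1 between Ccr9 and Cxcr6. In mouse 2 Ccr1 had its lowest value while Cxcr6 and Ccr9 had their highest, so these neighbours did not share an order of mice. Ccr1 lay close to the macrophage list, while Cxcr6, Cxcr3 and Ccr9 were highest in mouse 2, as the T cell list was. The promoter windows of Ccr1, of its neighbour Cxcr6, and of Cxcr3 are shown. Each runs from 250 bases before to 50 after the annotated start, 5′ to 3′ on the strand of the gene, from RefSeq's GRCm38.p6, which is a C57BL/6J and not a NOD sequence. Capitals mark letters searched on both strands: GAGGAAG, as bound by PU.1, TGTGGT, as bound by RUNX factors, and TCACAC, a T-box half-site.
Ccr1, chr9:123968643-123968942, minus strand: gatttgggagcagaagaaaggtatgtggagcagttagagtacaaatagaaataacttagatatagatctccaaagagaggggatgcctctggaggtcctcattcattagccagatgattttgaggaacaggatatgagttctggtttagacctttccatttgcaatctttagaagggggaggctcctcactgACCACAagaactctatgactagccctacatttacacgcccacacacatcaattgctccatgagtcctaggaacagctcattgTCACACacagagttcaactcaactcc
Cxcr6, chr9:123806227-123806526, plus strand: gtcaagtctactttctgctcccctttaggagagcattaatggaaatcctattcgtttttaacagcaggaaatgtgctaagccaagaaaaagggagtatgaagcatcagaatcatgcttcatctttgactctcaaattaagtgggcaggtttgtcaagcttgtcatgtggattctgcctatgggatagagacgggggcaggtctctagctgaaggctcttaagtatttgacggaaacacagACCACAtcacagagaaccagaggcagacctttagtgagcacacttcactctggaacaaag
Cxcr3, chrX:101734098-101734397, minus strand: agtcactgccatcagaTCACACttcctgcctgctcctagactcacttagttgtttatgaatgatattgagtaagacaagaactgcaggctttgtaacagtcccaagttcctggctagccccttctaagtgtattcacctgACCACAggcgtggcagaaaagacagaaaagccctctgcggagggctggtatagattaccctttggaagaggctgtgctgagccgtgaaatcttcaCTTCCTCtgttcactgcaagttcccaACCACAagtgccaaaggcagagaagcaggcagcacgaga

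The RUNX letters occurred in all 3 windows, at position -58 in Ccr1, at -10 in Cxcr6 and at -110 and 12 in Cxcr3, counted from the start of transcription to the first base of the match. Among the receptor windows not shown, these letters occurred in Ccr6, Cx3cr1 and Ackr3, and not in Ccr2, Ccr9 or Cxcr4. Of the 32851 mouse promoter windows of the same length, 16.8% hold them. TCACAC occurred at 25 in Ccr1 and at -234 in Cxcr3, and is in 14.5% of all windows. The PU.1-type letters occurred at -15 in Cxcr3, on the reverse strand, and at -219 in Ccr6, whose window is not shown. They are in 13.6% of all windows. A match describes letters in the window and is not evidence of a bound site.

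Ccr9, Ccr6 and Cxcr4 are the receptors of homeostatic traffic. CCR9 binds CCL25 and directs T cells and plasmacytoid dendritic cells to the gut. For Ccr9, mouse 5 read an intensity of 91.9, mouse 4 read 77.7, mouse 3 read 87.1, mouse 2 read 115 and mouse 1 read 58.4. As for Cxcr6, mice 2 and 1 were the extremes, here 1.98-fold apart at almost the same T2. The slope was -0.011 ± 0.063 (limma adjusted p = 1), 0.062 ± 0.035 without mouse 1 and 0.0099 ± 0.099 without mouse 5. The SD was 0.36 for Ccr9, 0.18 for its difference from the T cell list and 0.35 for its difference from the dendritic cell list, of which 10 of 15 genes passed the filter. The nearest genes were Kcnn4, a potassium channel gene whose value was equal on 3 arrays, Themis, a signalling gene of T cells, and Cd226, an activating receptor of T and NK cells, at 0.081, 0.10 and 0.10 log2.

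CCR6, the receptor for CCL20, is carried by B cells and by T cells that make interleukin 17. Ccr6 was under the filter, with intensities of 30.7 for mouse 5, 45.9 for mouse 4, 31.3 for mouse 3, 39.9 for mouse 2 and 52.0 for mouse 1. Mice 1 and 4 read highest, but all values were low, and the medians of the arrays lay between 23.8 and 24.5. The B cell list, with 13 of 15 genes past the filter, was also highest in mouse 1, at 9.01, and lowest in mouse 2, at 8.09, but Ccr6 was lowest in mouse 5, where the B cell mean was 0.18 above its average. The SD was 0.34 for Ccr6 and 0.36 for its difference from the B cell list. The slope of Ccr6 was 0.053 ± 0.054, with no call.

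CXCR4, the receptor for CXCL12, holds leukocytes in bone marrow and is found on most of them. Cxcr4 had intensities of 1573 for mouse 5, 1465 for mouse 4, 1288 for mouse 3, 1206 for mouse 2 and 1440 for mouse 1. Over mice 5 to 2 the values stepped down, and mouse 1 read near mouse 4. The slope was -0.037 ± 0.019, 1.18-fold higher in the fit at the lowest than at the highest T2 (95% interval from 0.928 to 1.49; limma adjusted p = 0.828). The B cell mean, like Cxcr4, lay below its average in mice 2 and 3 and above it in mice 1, 4 and 5. It varied more, with an SD of 0.40, which enlarges the SD of the difference, and it was highest in mouse 1. The T cell mean was highest in mouse 2, where Cxcr4 was lowest. The SD was 0.15 for Cxcr4, 0.29 for its difference from the B cell mean and 0.44 for that from the T cell mean.

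Ackr3 was under the filter in every mouse. Its intensity was 29.5 in mouse 5, 17.7 in mice 4, 3 and 2 and 16.2 in mouse 1, so 3 arrays shared a value and mouse 5 stood apart from the other 4. In 4 of the mice it read below the median of the array. The slope was -0.086 ± 0.044 with all mice and -0.013 ± 0.014 without mouse 5, so its size rests on that mouse. Genes of endothelial cells and fibroblasts, which express ACKR3 in tissues, had a probe set for 12 of 12 and 0 past the filter, with list means between 3.97 and 4.16.

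**Figure D3:**
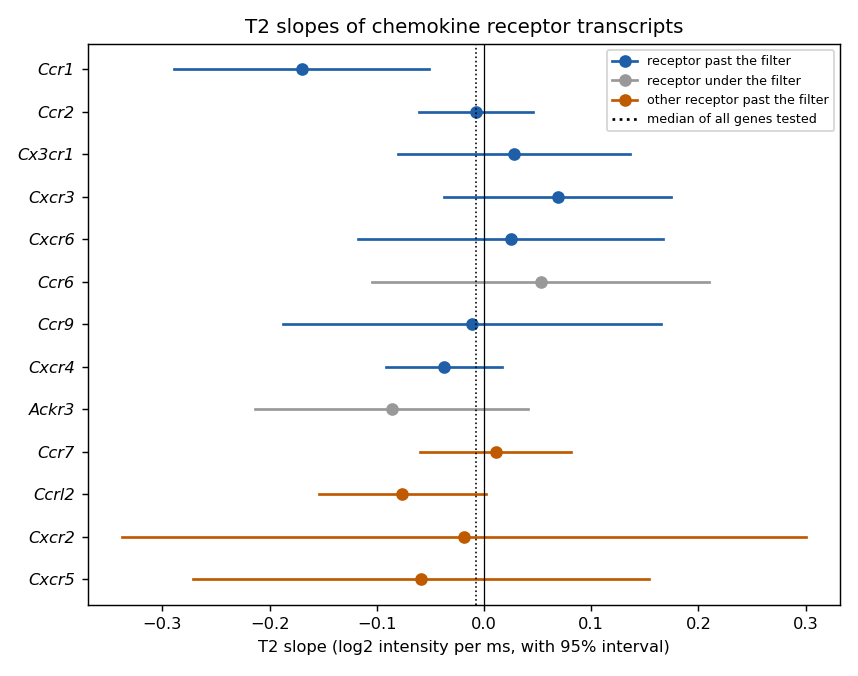
T2 slope (log2 intensity per ms) of the 9 receptors, from Ccr1 to Ackr3, and of the 4 other chemokine receptor genes past the filter, from Ccr7 to Cxcr5. Points are slopes, bars are 95% intervals, the solid line marks 0 and the dotted line the median slope of all genes tested, -0.0074. Only the bar of Ccr1 leaves out 0, before any correction for the number of genes.

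The receptors taken as inflammatory, Ccr1, Ccr2, Cxcr3, Cxcr6 and Cx3cr1, did not move as a class. Their slopes ran from -0.17 for Ccr1 to 0.069 for Cxcr3, 2 of 5 below 0, with a median of 0.025. The homeostatic receptors Ccr6, Ccr9 and Cxcr4 had slopes from -0.037 to 0.053, 2 of 3 below 0, with a median of -0.011. The median over all genes tested was -0.0074, and 67.9% of them had a slope below 0, as did 4 of the 7 receptors past the filter. The class mean deviated from its 5-mouse average by 0.015, -0.025, 0.17, -0.068 and -0.088 in mice 5, 4, 3, 2 and 1 for the inflammatory class, and by -0.014, 0.066, -0.13, 0.095 and -0.020 for the homeostatic class. Neither class was ordered by T2, and the slope of the inflammatory minus the homeostatic mean was -0.013 ± 0.034. The difference of the median slopes, 0.036, had the other sign, and it was -0.0098 without mouse 1 and -0.0049 without mouse 5. CCR6, CXCR6 and CX3CR1 are placed in either class by different authors, and without them the difference of medians was 0.017.

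**Figure D4:**
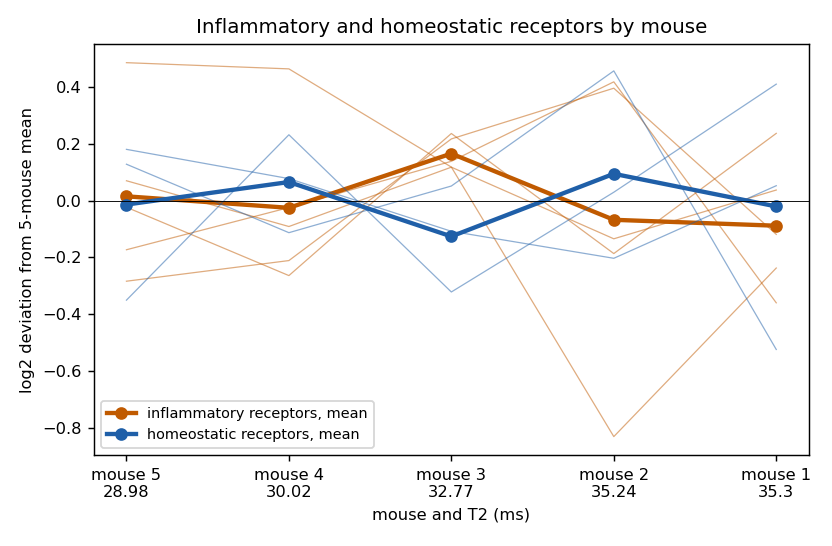
Log2 deviation from the 5-mouse mean (vertical axis) in each mouse, ordered by T2 from low to high. Thin lines are single receptors and thick lines with points the class means of 5 inflammatory (orange) and 3 homeostatic (blue) receptors. The class means stay between -0.13 and 0.17 while single receptors of each class move in opposite directions.

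The spread between mice differed among the receptors. Of the 7 past the filter, 5 had an SD above 0.16 log2, the median over the 2276 genes tested with 5 distinct values, as these receptors have. Ccr2 and Cxcr4 lay below it, at 0.11 and 0.15. In 6 of the 7 the gap between mice 1 and 2, of nearly equal T2, was at least 50% of the whole range, as it was in 35.8% of all genes tested. Of all genes tested, 38.2% had equal values on 3 or more arrays, which can make mice 1 and 2 equal, and the 7 receptors had none. The share among genes with 5 distinct values was not computed. These counts are descriptive.

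Among 14 other receptor genes of the family, 13 had a probe set and 4 passed the filter. None had an unadjusted p under 0.05, and their median slope was -0.039. CCR7 guides naive lymphocytes and mature dendritic cells into lymphoid tissue, and Ccr7 had intensities of 540, 549, 456, 602 and 549 in mice 5, 4, 3, 2 and 1. This was a narrow range with a slope of 0.011 ± 0.025. Cxcr5, which encodes the B cell follicle receptor, ranged from 100.4 in mouse 2 to 209 in mouse 1, with a slope of -0.059 ± 0.076. Cxcr2, the neutrophil receptor gene, ranged from 182 in mouse 4 to 574 in mouse 3, with a slope of -0.019 ± 0.11. It is a member of the neutrophil list, whose other 6 genes past the filter were also lowest in mouse 4 and highest in mouse 3 on average, at 6.59 and 8.71. Ccrl2, an atypical receptor gene, ranged from 74.5 in mouse 2 to 123 in mouse 5, with a slope of -0.076 ± 0.028. Ccr3, Ccr4, Ccr8, Ccr10, Cxcr1, Xcr1, Ackr1, Ackr2 and Ackr4 lay under the filter.

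Of 17 ligand genes of the 9 receptors, all with a probe set, 4 passed the filter and all 4 encode ligands of mouse CCR1. Ccl9 had intensities of 240 for mouse 5, 242 for mouse 4, 231 for mouse 3, 144 for mouse 2 and 184 for mouse 1, with its lowest values in the mice where Ccr1 was lowest. Its slope was -0.093 ± 0.031 (limma unadjusted p = 0.0416, adjusted p = 0.828). Of the 4 ligand genes tested, Ccl9 was the 1 with an unadjusted p under 0.05 (limma). Of all genes tested, 4.59% had such a p with lower intensity at higher T2. Ccl3 had a slope of -0.055 ± 0.026, Ccl6 -0.067 ± 0.053 and Ccl5 -0.014 ± 0.072. Ccl5, a chemokine of cytotoxic T cells, was highest in mouse 2 and lowest in mouse 1, as Cxcr6 was, at 629 and 294. The other 13 ligand genes were under the filter, among them Cxcl9 with 20.6 to 44.4 and Cxcl10 with 41.1 to 68.4, which bind CXCR3, and Cxcl12 and Ccl7, each with 1 value on all 5 arrays. Cells without CD45, which make several of these chemokines, were not sorted for, though 7 of 12 acinar genes passed the filter.

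Genes of signalling below the receptors showed no call over all genes. Of 22 such genes, 20 had a probe set and 18 passed the filter, 14 with a slope below 0 and 4 above, with a median of -0.019. At an unadjusted p under 0.05 there were 3, all lower at higher T2, where 4.59% of all genes tested had such a p in that direction. Rgs18, a regulator of G protein signalling found in myeloid cells and platelets, had 106 for mouse 5, 75.1 for mouse 4, 67.9 for mouse 3, 55.6 for mouse 2 and 48.3 for mouse 1. It was lower at each higher T2, with a slope of -0.14 ± 0.026 (limma adjusted p = 0.444). Its mean log2 intensity of 6.09 lay just above the filter, and the readings of mice 2 and 1 lay under it. Arrb2, the beta-arrestin that takes receptors off the surface, had a slope of -0.056 ± 0.016, and Gnb2, a G protein beta subunit, -0.047 ± 0.015. Gnai2, the main inhibitory G protein alpha subunit of leukocytes, had -0.021 ± 0.012, and Rac2 and Dock2, which drive leukocyte migration, 0.015 ± 0.0097 and -0.028 ± 0.020.

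By the same measure of distance, the genes nearest to Ccr1 were Aldh2, an aldehyde dehydrogenase, Dapk1, a kinase, and Plod3, a collagen-modifying enzyme, at 0.068, 0.13 and 0.14 log2, against a median of 0.49. Aldh2 had 409, 381, 318, 179 and 241 in mice 5, 4, 3, 2 and 1, which is the order of Ccr1 mouse by mouse. The genes nearest to Cx3cr1 were C2cd4a, Ms4a6c, a gene of monocytes and macrophages, and Ldlrad3, at 0.057, 0.069 and 0.080 log2. With 5 mice and 6603 genes, some genes come this close to any pattern, and nothing on shared function follows from it.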

How the data were processed

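CD45+ cells of 5 mice were hybridised to 1 array each. Per the submitters' processing notes, RMA in Affymetrix Power Tools produced the deposited values, which are intensities on a linear scale; neither versions nor a genome build are given there. RMA quantile normalizes arrays, so a shift shared by all genes would be removed. The labels name separate mice but no batch, date or slide, so none could be tested, and T2 fell in the order of the mouse numbers.

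Intensities were transformed to log2. GEO's platform annotation named 21789 of 35556 probe sets with 1 symbol, and the set of highest mean represented a gene. Slopes on T2 were fitted with limma 3.58.1 in R 4.3.3 over 6603 genes past the filter (3 residual degrees of freedom, two-sided, Benjamini-Hochberg); Ccr6 and Ackr3 took theirs from a fit of all 19938 genes. Slopes of list means and differences are ordinary least-squares slopes. The fit was tested on simulated data. The number of arrays limits the precision, and with fewer than 6 mice no correlation was computed.

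The receptors, lists and tests were chosen with earlier results of these data known. Named genes were the 9 receptors, the other-receptor list, ligand and signalling genes with an unadjusted p under 0.05 or the largest moderated t, and the 3 genes nearest to each tested receptor with an SD of at least 0.2. Cxcl9, Cxcl10, Cxcl12, Ccl7, Gnai2, Rac2, Dock2, Itgam and Fn1 were named after their values were seen. The acinar list had a mean slope of -0.0021 ± 0.059 (7 of 12 genes past the filter), and of the islet list 0 of 12 genes passed. The acinar mean was highest in mouse 1, at 7.32, and lowest in mouse 2, at 6.51, the pair of nearly equal T2. Its part in differences between these mice was not tested. The alternatives changed the filter, the array scaling, the probe sets, T2 to ranks, the variance model, array weights, the threshold, or left out genes with equal values or each mouse.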

Additional observations from a re-analysis of the deposited data

Results flagged for a closer look

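Among the 9 receptors and the 2 class means, 1 mouse stood apart from the other 4 in 1 case, when the distance to the next mouse was divided by the distance between the extremes (a gap share above 0.71 for 5 values). This was Ackr3, highest in mouse 5 at an intensity of 29.5, against 16.2 to 17.7 in the others, with a gap share of 0.854. Chance alone gives about 1 in 20 such cases. The gene was under the expression filter in all mice, and its value was equal on 3 arrays, which enlarges the gap share.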

How the results depend on the processing

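In every alternative run, 0 receptors passed the adjusted threshold. The number of receptors with an unadjusted p under 0.05 (limma) was 1 in the report (Ccr1). It was 0 with the filter at 7, which Ccr1 does not reach, and with the rank of T2, and 3 with array weights. When each mouse was left out it ran from 0 to 4, with 4 without mouse 1. The share of all genes tested with such a p also changed. It was 5.29% in the report, 6.15% with the filter at 7, 9.09% with array weights and 9.98% without mouse 1. The number of all genes past the adjusted threshold, 0 in the report against 349 at an unadjusted p under 0.05 (limma), was 3 with the filter at 7, 4 with arrays quantile normalized again, 4 with array weights, 35 without genes of equal values and 3 at a threshold of 0.10, and stayed at 0 without each mouse. The number at an unadjusted p under 0.05 was 646 with no filter, 219 with the filter at 7 and 600 with array weights, and ran from 284 to 659 when each mouse was left out. Of 87 slopes of single receptors under alternatives other than leaving out a mouse, 84 kept their sign and their side of the threshold or, for those under the filter, moved by less than a standard error. The slope of Ccr2 turned to 0.0027 with arrays quantile normalized again, that of Ccr9 to 0.045 with array weights, and that of Ackr3 moved to -0.035 with array weights; the cause was not tested. Among the 84, the slope of Ccr6, under the filter, changed sign to -0.00032 with array weights, a move of less than its standard error. When each mouse was left out, slopes ran from -0.020 to 0.0088 for Ccr2, from -0.081 to 0.062 for Ccr9, from -0.025 to 0.089 for Cxcr6 and from -0.12 to -0.013 for Ackr3. The adjusted p of Ccr1 ran from 0.149 to 0.890 over its alternatives. The difference of median slopes between the classes ran from -0.0098 to 0.035 when each mouse was left out and from 0.017 to 0.065 in the others. No paired analysis was possible because the mice form 1 group. Ccr1, Ccr6, Ccr9 and Ackr3 had readings under an intensity of 64, the level of the filter. The medians of the arrays lay between 23.8 and 24.5, and of these genes only Ackr3 had readings below them.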
